A study of Vernicia fordii with 6 samples.

Results

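Transposon-derived transcripts of tung tree (Vernicia fordii) flower buds were taken from an assembled transcriptome by name. A unigene, which is an assembled transcript with no genome behind it, was a member when its best SwissProt match was described as a transposon, a transposase, a retrovirus-related protein or a transposable element. The rule read the description alone and no measured value. It found 454 members among 56065 unigenes, of which 20038 had a SwissProt match.

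Transposons are DNA stretches that move within a genome. Retrotransposons move through an RNA copy, and the long-terminal-repeat kinds, Copia and Gypsy, encode a Gag-Pol polyprotein with protease, reverse transcriptase, RNase H and integrase, while LINE elements lack the terminal repeats and encode a reverse transcriptase with an endonuclease. DNA transposons move as DNA through a transposase, as the maize element Activator (AC) of the hAT superfamily does. Plants keep most copies silent by DNA methylation, histone H3 lysine-9 methylation and small RNAs, and some transposase genes have become ordinary host genes that no longer move.

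In tung tree, flowers of both sexes grow on each plant, and the study compared them when their development parts. Male and female buds at stage 7 were collected separately from a shared plant of the cultivar Duisuitong, from 4-year old trees, and each sample pooled many flowers. There were 3 samples of each sex, male replicates 1 to 3 and female replicates 1 to 3, with no treatment and no further genotype. Reads counted on unigenes numbered from 14099287 to 16849489 in the male and from 11467832 to 40385019 in the female libraries.

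Female replicate 3 stood apart. It had the fewest reads, 54.9% of them fell on 5 unigenes (the most read ones over the whole series), which took 36.9% and 21.1% of male replicates 1 and 3 and 1.12% to 4.46% of the other libraries, and its TMM factor (edgeR's scaling for library make-up) was 0.319, against 1.74 and 1.86 in the other female libraries. It correlated more closely with male replicates 2 and 3 (r = 0.813 and 0.824 across unigenes, which are not independent replicates) than with female replicates 1 and 2 (0.800 and 0.796). For the members, median differences, counts under a threshold on p and calls are also given without it. Overlaps between the sexes and the comparison by level use all 6 libraries. The sex labels were checked against both unigenes named for DEFICIENS, a regulator of petal and stamen identity, which had higher levels in every male library, at 251 to 593 summed CPM (read counts on the TMM scale, relative to the library's effective total), than in every female library, at 157 to 210. That check rests on the scale. As a share of all reads counted, male replicate 1 (0.0202%) was below female replicates 1 and 2 (0.0269% and 0.0384%), and on deposited RPKM neither unigene separated the sexes.

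The members were mostly retrotransposons. Copia-type names made up 230 members, 225 of them named after the tobacco element TNT 1-94 and 5 after yeast Ty5-1. Gypsy-type names made up 112, after the Drosophila elements 17.6 (27 members), 297 (13), opus (8) and gypsy (2), yeast Ty3-I (28) and Ty3-G (11), and Tf2 of fission yeast (23 over its copies). LINE-type names made up 70, of which 41 were named after TX1 of Xenopus and 29 after the ORF2 protein of LINE-1 of human or mouse, and 37 were named AC transposase. The other 5 were 3 transposases of bacterial insertion sequences, a Gypsy integrase-like protein and an Arabidopsis transposase-like protein. Names are those of the closest match in another species, so that they give the kind of element and not its identity in tung tree.

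Most of these unigenes were short and low. Their length ran from 301 to 10821 bp with a median of 744.5 bp, against 1290 bp for all other unigenes with a SwissProt match. The median over members of the mean deposited RPKM (reads per kilobase, relative to the library total) was 1.06, against 7.08 for the other SwissProt unigenes, and 8 members reached a mean of 10. LINE-type unigenes were the longest class (median 1897 bp) and AC transposases the highest (median 3.04 RPKM, with 6 of the 8 members that reached 10). In the NR protein database the best match was a hypothetical or uncharacterized protein for 280 members, a polyprotein, integrase or reverse transcriptase for 120 and a protein named as a transposon for 45. The 454 members had 275 different NR descriptions, and 255 members had a description in common with another member. Descriptions were compared without the protein's identifier, so a shared one need not be the same protein. Unigenes of this kind can resemble each other, and the counting rule for reads that fit several of them is not known.

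Every member had a read in some library, and 251 had a read in all 6. The test was run on the 29327 unigenes that passed edgeR's filter on low counts, among them 233 members (51.3%), against 84.2% of the other SwissProt unigenes. The remaining 221 members had a median of 1 to 3 reads in the male libraries and of 11, 16 and 0 reads in female replicates 1, 2 and 3. A member that passed the filter only through the sex where it is high had to differ, so the counts below describe the members tested and not all members.

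On the TMM scale, Copia-type and Gypsy-type transcripts had lower summed levels in every male than in every female library, while LINE-type and AC transposase levels overlapped. Copia-type members summed to 422.1, 313.9 and 340.8 CPM in male replicates 1, 2 and 3, against 519.8, 673.5 and 508.5 CPM in female replicates 1, 2 and 3. Gypsy-type members summed to 236.1, 101.4 and 75.6 CPM in the male libraries, against 297.5, 433.9 and 245.3 CPM in the female libraries. The lowest female library lay above the highest male library in both classes, by a narrow margin for Gypsy-type elements, whose level in male replicate 1 was over that of the other male libraries.

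LINE-type members summed to 194.9, 175.6 and 172.5 CPM in male and to 249.9, 296.6 and 122.0 CPM in female replicates 1, 2 and 3, so that female replicate 3 was the lowest of all. AC transposases summed to 378.9, 284.1 and 302.5 CPM in male and to 345.7, 394.4 and 254.6 CPM in female replicates, with overlap on both sides. Over all 454 members the sums were 1237, 884.1 and 898.8 CPM in male and 1420, 1808 and 1145 CPM in female libraries, and these overlapped too. Since the buds were sequenced whole, fewer cells of a type and less RNA per cell cannot be told apart.

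**Figure D1:**
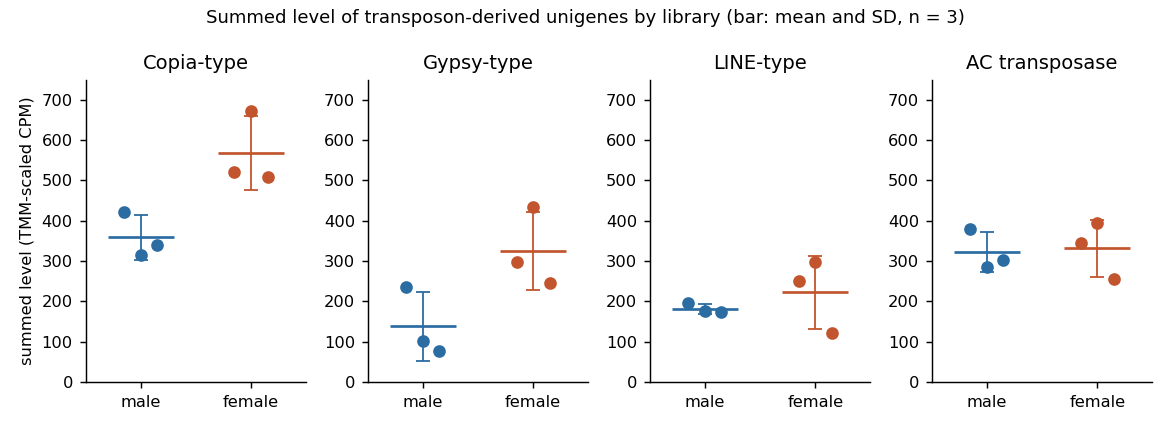
Summed level of each class of element in TMM-scaled CPM (y axis), with 1 dot per library, male left and female right, in replicate order; the bar is the mean and its whisker the SD over 3 libraries. Copia-type means were 358.9 in male and 567.3 in female flowers and Gypsy-type means 137.7 in male and 325.6 in female flowers, with no overlap of the dots, while the dots of LINE-type and AC transposase unigenes overlap.

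Without the TMM scale the order of the libraries differed. As a share of all reads counted, the members took 0.0995%, 0.120% and 0.0787% of male libraries 1, 2 and 3, against 0.242%, 0.330% and 0.0364% of female libraries 1, 2 and 3. On that scale female replicate 3 was below every male library and the other female libraries above every one. The mean share was 0.0995% ± 0.0208 in male and 0.203% ± 0.151 in female flowers (SD, n = 3 each), a difference smaller than the spread of the female libraries. The class differences given above did not hold in every library on it either. Copia-type members took 0.0298% to 0.0427% of the male libraries, against 0.0162% of female replicate 3 and 0.0887% and 0.123% of the other female libraries. For Gypsy-type members the share was 0.00662% to 0.0190% in the male libraries, against 0.00780% in female replicate 3 and 0.0508% and 0.0791% in the other female libraries. Without the 5 most read unigenes the mean shares were 0.128% in male and 0.222% in female flowers.

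Member by member, few differences passed the test, while most estimates leaned to female flowers. The quasi-likelihood F test of edgeR was used, and a unigene was called where its Benjamini-Hochberg adjusted p over all unigenes tested was under 0.05 and its fold 2 or more. Of the 233 members tested, 1 was called higher in male flowers, where 1.56% of all unigenes tested were, and 1 was called lower in male flowers, where 0.143% were. Log2 differences, male minus female, were below 0 in 185 members (79.4%), against 54.5% of all unigenes tested, and their median was -0.88, against -0.09 for all unigenes, 0.08 for the other SwissProt unigenes and -0.38 for unigenes without a SwissProt match. P-values here weigh a difference between the sexes against the spread of samples within each sex. The biological coefficient of variation, taken in common over all unigenes tested, was 51.0%.

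At an unadjusted p under 0.05 there were 8 members higher in male flowers (3.43%, against 5.75% of all unigenes) and 45 lower in male flowers (19.3%, against 7.42%). All male libraries lay above all female libraries in 15 members, where the share over all unigenes was 10.4%, and below them in 49 members (21.0%), where it was 9.06%. On RPKM as deposited, a scale chosen after seeing the data, the counts were 8 members (3.46% over all unigenes) and 7 members (1.28% over all unigenes). DESeq2, which was run without the filter, called 17 members higher in male flowers (4.52%, against 2.51% of all unigenes with an adjusted p) and 4 lower in male flowers (1.06%, against 1.5%). Of the 17, 10 were too low for edgeR's filter.

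The classes differed in where their estimates lay. Of 51 Gypsy-type members tested 45 were below 0, with a median of -1.26 and quartiles of -1.51 and -1.03, and of 111 Copia-type members 95 were below 0, with a median of -0.90. LINE-type members had a median of -0.24 (29 of 45 below 0) and AC transposases of -0.12 (14 of 24 below 0). On the TMM scale, members higher and lower in male flowers without overlap were 5 and 5 for LINE-type and 3 and 3 for AC transposases. They were 2 and 18 for Gypsy-type and 5 and 23 for Copia-type unigenes, where the shares over all unigenes were 10.4% and 9.06%. On deposited RPKM, chosen after seeing the data, few members of any class separated. More of them were lower than higher in male flowers for Gypsy-type unigenes, but not for Copia-type unigenes. There they were 0 and 0 of 45 for LINE-type, 1 and 0 of 24 for AC transposases, 2 and 5 of 51 for Gypsy-type and 5 and 2 of 111 for Copia-type unigenes. Over all unigenes the shares on that scale were 3.46% and 1.28%. Among Gypsy-type names, all 12 tested members named after 17.6, all 6 named after Ty3-G and 13 of 15 named after Ty3-I were below 0, with medians of -1.38, -1.25 and -1.18. Among LINE-type names, 15 of 27 named after TX1 were below 0 (median -0.05) and 14 of 18 named after LINE-1.

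**Figure D2:**
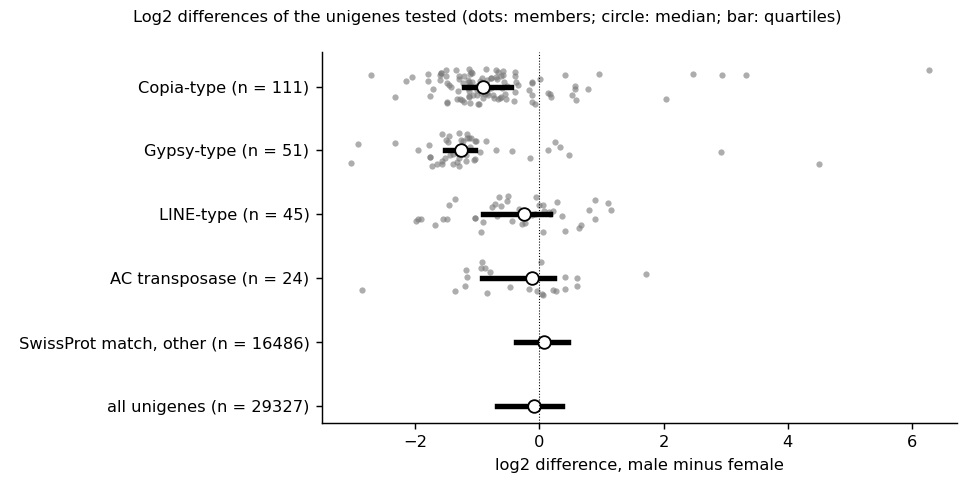
Log2 difference, male minus female (x axis), of each member tested (grey dots) by class, with the median (circle) and quartiles (bar) of the class and, in the lower rows, of the other SwissProt unigenes and of all unigenes tested. Gypsy-type and Copia-type members crowd to the left of 0, around medians of -1.26 and -0.90, with a few dots far to the right, while the LINE-type and AC transposase medians lie near that of all unigenes.

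The Gypsy-type and Copia-type medians kept their direction with any library left out, while counts of members moved. With each library left out, the share of members below 0 ran from 69.9% to 79.0%, while over all unigenes tested it ran from 52.7% to 57.6%. The Gypsy-type median ran from -1.84 without male replicate 1 to -0.87 without male replicate 3 and the Copia-type median from -1.45 to -0.57 without the same libraries. The LINE-type median turned to 0.20 without female replicate 2, and that of AC transposases to 0.02 without male replicate 3 and 0.06 without female replicate 1. Without female replicate 3 the 4 medians were -0.84 for Copia-type, -1.20 for Gypsy-type, -0.35 for LINE-type and -0.25 for AC transposases.

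The number of members lower in male flowers at an unadjusted p under 0.05 moved furthest. It was 107 (35.6% of the members tested, against 10.9% of all unigenes) without male replicate 1 and 63 (20.7%, against 15.8%) without female replicate 3. It was 26 (10.6%, against 4.66%) without female replicate 1 and 20 (7.25%, against 5.92%) without male replicate 2. It was 15 (5.12%, against 5.33%) without male replicate 3 and 11 (4.47%, against 3.83%) without female replicate 2, shares near those of all unigenes. The calls numbered 3 higher and 4 lower in male flowers without male replicate 1 and 5 and 2 without female replicate 3, 1 and 0 without male replicate 2, male replicate 3 or female replicate 1, and 0 and 0 without female replicate 2.

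**Figure D3:**
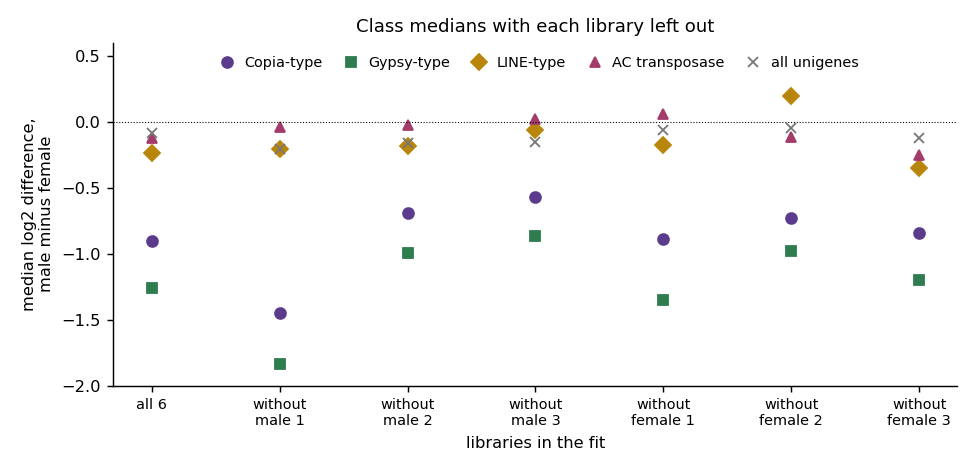
Median log2 difference, male minus female (y axis), of each class of element and of all unigenes tested (crosses), with all 6 libraries and with each library left out (x axis). The Gypsy-type and Copia-type medians stay below that of all unigenes in every fit, from -1.84 to -0.87 and from -1.45 to -0.57, while those of LINE-type and AC transposase unigenes cross 0.

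Low unigenes leaned to female flowers in general, and the members were compared with unigenes of like level. Among unigenes with a mean deposited RPKM of 1 to 2, the 79 members tested had a median of -0.98, against -0.55 for all unigenes tested. Between 2 and 5 RPKM the 93 members had a median of -0.86, against -0.33, and between 5 and 10 RPKM the 22 members had -1.13, against -0.06. Under 1 RPKM the 31 members had -0.72, against -0.55. The 8 members with 10 RPKM or more, mostly AC transposases, had a median of 0.14, against 0.16 for all unigenes of that level.

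**Figure D4:**
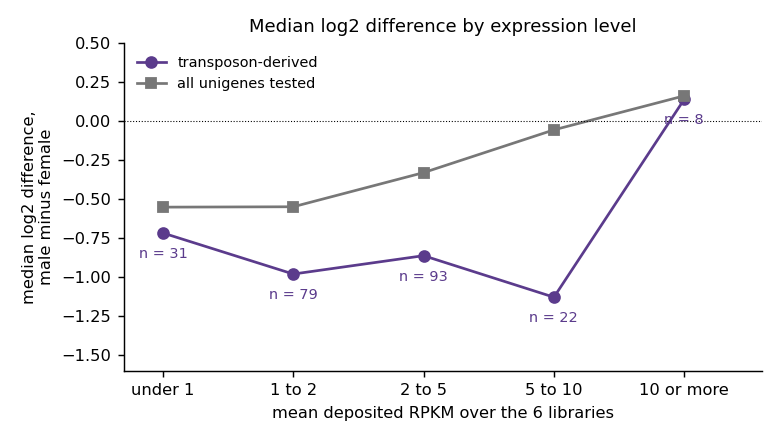
Median log2 difference, male minus female (y axis), by mean deposited RPKM over the 6 libraries (x axis), for transposon-derived unigenes (circles, with their number) and for all unigenes tested (squares). The members lie below all unigenes at every level under 10 RPKM, most at 5 to 10 RPKM (-1.13 against -0.06), and beside them at 10 RPKM or more.

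Levels that moved with the libraries were taken from lists of names. Unigenes named for pollen, anther, tapetum or exine summed to 487 to 866 CPM in male and 186 to 359 CPM in female libraries. Of these 27 unigenes 20 were tested and 4 called, all higher in male flowers, where 1.56% of all unigenes tested were. The median log2 difference of the 20 was 0.34, and 8 were below 0. The 4 unigenes named for carpel regulators summed to 41.0 to 55.0 CPM in male and 37.6 to 49.1 CPM in female libraries. None was called or had an unadjusted p under 0.05 by edgeR. They include AGAMOUS, at 47.7 to 71.9 RPKM on the TMM scale over the libraries. The paper describes it as of a gene class that takes part in stamen as well as carpel identity. Photosynthesis unigenes, most of them plastid-encoded, summed to 7826 CPM in male replicate 1, against 1044 and 934 in the other male libraries, and to 4022 CPM in female replicate 3, against 407 and 329 in the other female libraries. Male replicate 1 was also the male library with the highest Gypsy-type, Copia-type, LINE-type and AC transposase levels. Female replicate 3 went the other way. It was the female library with the lowest level in each of these classes (245.3, 508.5, 122.0 and 254.6 CPM in the same order). The part of tissue make-up or RNA quality in the members' differences was not tested.

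The member called lower in male flowers was the most abundant of all, contig_22280, a unigene of 463 bp named after TNT 1-94 whose best NR match is a hypothetical protein of Citrus clementina. It had 9.04, 4.06 and 4.90 RPKM (here and below on the TMM scale) in male replicates 1, 2 and 3, against 45.0, 48.8 and 22.5 RPKM in female replicates 1, 2 and 3. All male libraries lay below all female libraries, by 6.56-fold in the fit (log2 difference -2.71, SE 0.47, Benjamini-Hochberg adjusted p = 0.0313 by edgeR). It was also called without female replicate 3 (-2.84) and without male replicate 1 (-2.99), and not when any other library was left out, with library totals alone or with limma. Its adjusted p ran from 8.50e-05 with DESeq2 to 0.195 over its alternatives.

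The member called higher in male flowers was contig_18351, a Gypsy-type unigene of 1445 bp named after Tf2-8, with 3.20, 4.11 and 4.66 RPKM in male replicates 1, 2 and 3, against 0.223, 0.169 and 0 RPKM in female replicates 1, 2 and 3. It had 272 male and 36 female reads, and the female reads came from the deepest libraries, female replicates 1 and 2. Its log2 difference was 4.50 (SE 0.61, Benjamini-Hochberg adjusted p = 0.00897 by edgeR). The call was lost without female replicate 2, with library totals alone and with limma, and held in the other fits. Its adjusted p ran from 5.93e-11 to 0.166 over its alternatives.

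Close relatives of contig_18351 did not all share its pattern. Its NR match, a hypothetical protein of grape, was also that of contig_18222, contig_18350 and contig_27247, which were looked at because of it. Of these, contig_18222 had 1.07, 0.979 and 1.99 RPKM in male libraries, against 0.194, 0.0983 and 0.397 RPKM in female libraries, with no overlap (log2 2.92, SE 0.70, Benjamini-Hochberg adjusted p = 0.122 by edgeR), and was called with DESeq2 (adjusted p = 0.00508). The other two overlapped between the sexes, with log2 differences of 0.48 for contig_18350 and -0.14 for contig_27247.

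Further Copia-type unigenes had higher levels in all male than in all female libraries without a call by edgeR. Among the 6 members with the smallest p on the male side, 4 were named after TNT 1-94, as were 111 of the 233 members tested. Of those 111, 95 had a log2 difference below 0. The unigene contig_35028 had 2.21, 5.29 and 6.08 RPKM in male replicates 1, 2 and 3, against 0.843, 0.497 and 0.239 RPKM in female replicates 1, 2 and 3 (log2 2.94, SE 0.61, Benjamini-Hochberg adjusted p = 0.0685 by edgeR). It was called without male replicate 1, with DESeq2 and with no filter.

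The level of contig_33186 was 0.783, 1.497 and 0.860 RPKM in male libraries, against 0.0585, 0.122 and 0.224 RPKM in female libraries (log2 3.33, SE 0.72). For contig_22277 it was 2.28, 3.04 and 1.33 RPKM in male libraries, against 0.450, 0.407 and 1.06 RPKM in female libraries (log2 2.04, SE 0.61). Neither passed the adjustment by edgeR, DESeq2 called both (adjusted p = 0.00257 for contig_33186 and 0.0411 for contig_22277), and the sexes did not overlap in either.

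Few female reads were counted for contig_16667, also named after TNT 1-94. It had 20, 77 and 11 reads in male replicates 1, 2 and 3, against 0, 0 and 2 reads in female replicates 1, 2 and 3. Its level was 1.65, 3.18 and 0.843 RPKM in male libraries, against 0, 0 and 0.518 RPKM in female libraries (means of 1.89 in male and 0.173 in female flowers). So the shallow female replicate 3 came near male replicate 3, and the deep female replicates 1 and 2 had no read. The male to female ratio of the pooled reads, in which those deep libraries weigh most, was 154, with a 95% exact counting interval from 41.6 to 1287 that takes no account of replicate spread. By edgeR its Benjamini-Hochberg adjusted p was 0.176. Both female reads came from female replicate 3, and without that library it was called, as it was with DESeq2 and with library totals alone.

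On the female side, the 6 members with the smallest p were contig_22280 and 5 others, 2 of them Gypsy-type, 2 Copia-type and 1 LINE-type. The longest, contig_2339 (5780 bp, named after 17.6), had 0.453, 0.106 and 0.0981 RPKM in male replicates 1, 2 and 3, against 1.31, 2.17 and 1.33 RPKM in female replicates 1, 2 and 3 (log2 -2.91, SE 0.67, Benjamini-Hochberg adjusted p = 0.109 by edgeR). It was called without male replicate 1, with DESeq2 and with no filter. The Ty3-G unigene contig_12342 had 1.14, 0.392 and 0.201 RPKM in male libraries, against 2.45, 3.41 and 2.72 RPKM in female libraries (log2 -2.33, SE 0.63), and was called without male replicate 1 and with DESeq2. In both, male replicate 1 was the highest male library and still lay below the lowest female library.

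Of the Copia-type unigenes on this side, contig_18009 had 0.991, 0.925 and 1.42 RPKM in male libraries, against 2.79, 7.92 and 2.98 RPKM in female libraries (log2 -2.05, SE 0.53). The level of contig_7121 was 0.783, 0.701 and 0.842 RPKM in male libraries, against 1.65, 6.63 and 1.81 RPKM in female libraries (log2 -2.15, SE 0.62). In both, female replicate 2 was far above the other female libraries, which were alike. The LINE-type unigene contig_21236, named after TX1 and matching a reverse transcriptase of Rosa rugosa, had 1.54, 2.12 and 1.58 RPKM in male libraries, against 4.67, 6.69 and 3.16 RPKM in female libraries (log2 -1.48, SE 0.38). None of these passed the adjustment by edgeR, and DESeq2 called contig_18009 (adjusted p = 0.0280).

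**Figure D5:**
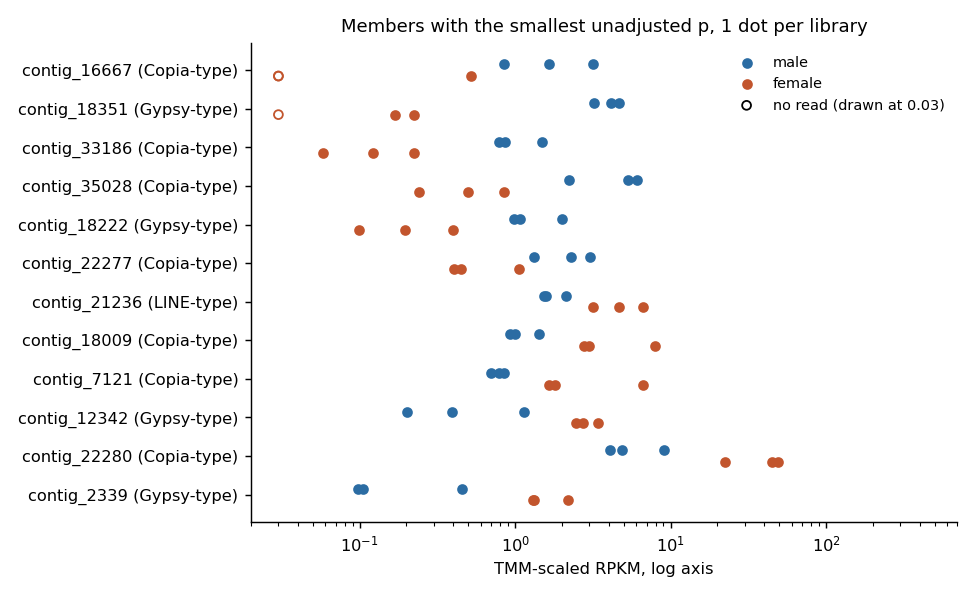
TMM-scaled RPKM on a log axis (x axis) of the 6 members with the smallest p in each direction (rows, from the highest to the lowest log2 difference), with 1 dot per library, male dots above female dots in each row, and open circles for libraries with no read. In none of the 12 rows do the sexes overlap, which the choice by smallest p favours and which is no separate result. The dots of contig_22280, at 22.5 to 48.8 RPKM in female flowers, stand above the other 11.

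Members with the same NR description were compared as groups, which was decided after their values were seen and so is given without a test. Several descriptions are general, so that a group need not match a single protein. In 24 groups at least 4 members shared a description, and 11 of these had at least 4 members tested. Estimates were all below 0 in 5 groups, all above 0 in 1 and of both signs in 5. The largest group below 0 was 10 Gypsy-type unigenes matching a DNA/RNA polymerases superfamily protein of cacao, with log2 differences from -2.33 to -1.11 and a median of -1.37, followed by 7 unigenes, 6 Copia-type and 1 LINE-type, matching a polyprotein of Solanum demissum, from -1.45 to -0.62.

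The group above 0 held 5 LINE-type unigenes matching a single protein of peach, from 0.16 to 0.42, and in none was the unadjusted p under 0.05. Both signs occurred among 6 unigenes named after TNT 1-94 whose matches are described as Gag-Pol of sweet potato. Of these, contig_35028 and contig_22277 had higher levels in male flowers, as given above, while contig_16914, contig_26893 and contig_3168 had lower levels in every male than in every female library, with log2 differences of -1.14, -1.29 and -1.09. How alike the unigenes of a group are, and how reads that fit several of them were divided, was not tested.

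The most abundant Gypsy-type and LINE-type unigenes overlapped between the sexes. The Gypsy-type contig_18726 (Ty3-I) had 7.16, 2.89 and 1.24 RPKM in male replicates 1, 2 and 3, against 6.70, 11.3 and 7.42 RPKM in female replicates 1, 2 and 3, with the overlap made by male replicate 1 (log2 -1.18, SE 0.60). The LINE-type contig_21473 had 1.20, 2.01 and 0.678 RPKM in male libraries, against 4.74, 7.82 and 1.95 RPKM in female libraries, with the overlap made by female replicate 3 (log2 -1.91, SE 0.60). The Copia-type contig_12580, matching the Rider element of tomato, had 16.2, 4.00 and 2.06 RPKM in male libraries, against 11.9, 13.4 and 12.6 RPKM in female libraries (log2 -0.78, SE 0.71). Here the female libraries were alike and male replicate 1 was above all of them.

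AC transposase unigenes were the class with the highest level per unigene. No AC transposase and no LINE-type unigene was called by edgeR. At an unadjusted p under 0.05 there were 1 AC transposase higher and 6 lower in male flowers (25% of those tested, against 7.42% of all unigenes), and 0 LINE-type unigenes higher and 6 lower in male flowers (13.3%, against 7.42%). DESeq2 called 3 LINE-type unigenes, all higher in male flowers (4.29%, against 1.97% of all unigenes to which it gave a p-value), and no AC transposase. Of these, contig_42406 had no female read and contig_50551 had 1, and both were too low for edgeR's filter. By limma, none of either class was called. Of the 6 AC transposases with a mean of 10 RPKM or more, 2 had higher levels in every male library. The unigene contig_5537 had 14.5, 12.4 and 12.8 RPKM in male replicates 1, 2 and 3, against 10.9, 9.66 and 5.37 RPKM in female replicates 1, 2 and 3 (log2 0.61, SE 0.33). For contig_4598 the levels were 16.8, 11.2 and 15.6 RPKM in male libraries, against 9.24, 8.31 and 10.9 RPKM in female libraries (log2 0.61, SE 0.30).

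The other AC transposases of this level overlapped. Values for contig_8516 were 10.1, 8.49 and 11.6 RPKM in male libraries, against 7.44, 7.56 and 14.4 RPKM in female libraries, where female replicate 3 was the highest of all (log2 0.05, SE 0.35). The log2 differences were 0.23 (SE 0.31) for contig_8575 and 0.42 (SE 0.37) for contig_9457, and these signs, with that of contig_8516, turned when libraries were scaled by their totals alone. The most abundant AC transposase by deposited RPKM, contig_11427, averaged 6.90 ± 2.89 RPKM in male and 12.2 ± 6.98 RPKM in female flowers (SD, n = 3 each, log2 -0.84, SE 0.53), and female replicate 3, at 4.69 RPKM, was within the male range.

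The female libraries disagreed for another AC transposase, contig_38628, which was chosen after its values were seen. It had 34, 20 and 14 reads in male replicates 1, 2 and 3, against 1040, 1163 and 0 reads in female replicates 1, 2 and 3. Its log2 difference was -2.85 (SE 1.19) with all libraries, and -3.27 without female replicate 3, where it was called (Benjamini-Hochberg adjusted p = 0.0288 by edgeR), as it was with library totals alone. The Arabidopsis transposase-like unigene contig_14382 overlapped between the sexes (log2 -0.29, SE 0.43), and its sign turned without male replicate 1.

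Some members were read in a single sex, all of them too low for edgeR's filter. How many of all unigenes were read in a single sex was not counted. The numbers of such members, here and below, therefore say nothing about the members as a group. Reads in male but not in female flowers were counted for 9 members, with 9 to 83 reads each, and 5 of these had reads in all male libraries. The LINE-type contig_42406 had 3, 19 and 61 reads in male replicates 1, 2 and 3, which is at least 89.3-fold higher in male flowers against a floor of 3 reads over the female libraries, and at least 24.2-fold without male replicate 3, which holds most of its reads. The Copia-type contig_42168 had 22, 9 and 8 male reads, at least 43.8-fold higher and 23.1-fold without male replicate 1, and the Gypsy-type contig_38122 had 9, 6 and 9, at least 26.3-fold higher. These bounds allow for counting error in the sex without reads only, and not for that of the male reads or for replicate spread.

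Reads in female but not in male flowers were counted for 14 members, with 11 to 51 reads each. Female replicates 1 and 2 were the deepest libraries of all. The Copia-type contig_56160 had 14, 37 and 0 reads in female replicates 1, 2 and 3, at least 3.91-fold higher in female flowers against a floor of 3 reads over the male libraries, and at least 1.95-fold without female replicate 2. The highest bound over the 14, 5.14-fold for the AC transposase contig_28040, rests on 3 reads in female replicate 3 and is 1.30-fold without it. Of these, 3 had reads in all female libraries and 11 had none in female replicate 3.

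Genes of transposon silencing, and of the DNA demethylation that reverses it, did not pass the test in either direction. The list held 49 unigenes by name, 4 of them demethylases, 43 of them tested, with a median log2 difference of -0.27 and 36 below 0. That share, 83.7%, stood beside 79.4% of the members, 54.5% of all unigenes tested and 45.0% of the other SwissProt unigenes. None was called by edgeR, DESeq2 or limma with all libraries, and 1 higher (2.33%, against 5.75% of all unigenes) and 3 lower in male flowers (6.98%, against 7.42%) had an unadjusted p under 0.05. Without female replicate 3 edgeR called 2 of 48 lower in male flowers, beside 292 of 37016 unigenes (0.789%). Without the demethylases 33 of 39 were below 0, with the same median.

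All 11 tested DNA methyltransferase unigenes were below 0, where 54.5% of all unigenes tested were, with a median of -0.74. Among them contig_19265, named DRM1 for an enzyme of RNA-directed DNA methylation, had 1.86, 2.42 and 1.92 RPKM in male replicates 1, 2 and 3, against 7.07, 8.10 and 1.49 RPKM in female replicates 1, 2 and 3 (log2 -1.45, SE 0.57), with female replicate 3 the lowest of all. Both unigenes named argonaute 4, which binds the small RNAs of that pathway, were below 0. Of them, contig_5484 had 14.9, 16.9 and 13.1 RPKM in male libraries, against 22.7, 31.9 and 20.2 RPKM in female libraries (log2 -0.74, SE 0.31), without overlap. The other, contig_28176, had 0.514, 1.003 and 0.679 RPKM in male libraries, against 3.16, 5.87 and 0.851 RPKM in female libraries (log2 -2.19, SE 0.66).

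The other families of the list lay on both sides of 0. The chromatin remodeller DDM1 (contig_4038) had 15.9, 11.6 and 14.0 RPKM in male libraries, against 11.9, 12.4 and 13.0 RPKM in female libraries (log2 0.15, SE 0.31). The 8 tested SUVH unigenes, histone H3 lysine-9 methyltransferases, had a median of -0.17, and the 3 unigenes of RNA polymerases IV and V of -0.28. All 5 MORC and all 3 CLASSY unigenes were below 0, with medians of -0.41 and -0.37, as was the Dicer-like unigene at -0.46. The 3 RNA-dependent RNA polymerases had a median of 0.44, and the 4 demethylases, ROS1 and DEMETER, which remove DNA methylation, of -0.23. The histone deacetylase HDA6 unigene contig_22270 had 4.67, 5.45 and 5.44 RPKM in male libraries, against 2.69, 2.38 and 2.88 RPKM in female libraries (log2 0.98, SE 0.37), while the other HDA6 unigene, contig_8846, had a log2 difference of -0.11 (SE 0.37).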

How the data were processed

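RNA of 3 male and 3 female samples was sequenced on the Illumina platform. The authors trimmed the reads, assembled them de novo with CLC Genomics Workbench and CAP3, and deposited read counts and RPKM for each unigene and library, with the length and the best SwissProt and NR match. For mapper and counter, the names are not given in the sources used here. In the deposited table, RPKM values are relative to unigene length and to the reads counted in the library, and recomputing RPKM from the counts gave values within 4.73e-08 of them in relative terms. All 12 sample columns were used, while 7 lines that name no unigene were not.

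Read counts went into edgeR 4.0.16 under R 4.3.3 (filterByExpr, TMM, quasi-likelihood F test, Benjamini-Hochberg over all unigenes tested), with limma 3.58.1 on log2(RPKM + 1) and DESeq2 1.42.0 as alternatives, and Python 3.11.15 (pandas 2.3.3, numpy 2.4.6, matplotlib 3.10.9, scipy 1.17.1) made tables and figures. The SE was obtained as the size of the log2 difference over the root of F. RPKM on the TMM scale uses the effective total (reads counted times the TMM factor). This total was lowest in female replicate 3 (3648171) and highest in female replicate 2 (73636463), so that low unigenes were measured least precisely in female replicate 3.

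Members, classes and lists were chosen with earlier results of these data known. Named members were the called ones, the 6 with the smallest p in each direction, the 8 with the highest mean RPKM and the highest of each class, and others are given as chosen after their values were seen. The silencing list (demethylases included), the lists of pollen and anther, stamen identity, carpel and photosynthesis names, and a list of related names outside the rule were taken by SwissProt description. Same-numbered samples deviated together (r = 0.19, 0.13 and 0.37 for numbers 1, 2 and 3, against -0.32 to 0.16 for other pairs), and buds of both sexes came from the same plant, so the replicate number was used as a block in an alternative. With 3 libraries a sex, 0.1 is the smallest p an exact two-sided permutation test allows, and none was run. No sequence was printed, because none was used here.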

Additional observations from a re-analysis of the deposited data

How the results depend on the processing

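With the replicate number as a block, 1 member was called in each direction, 53 members (22.7%, against 7.43% of all unigenes) were lower in male flowers at an unadjusted p under 0.05 and the median log2 difference was -0.96; the block changed no call of a member and no count by more than 1.5 times. Members called higher and lower in male flowers numbered 5 and 2 with no filter (1.10% and 0.441%, against 1.28% and 0.153% of all unigenes), 17 and 4 with DESeq2, 0 and 0 with limma on log2(RPKM + 1) (over all unigenes 1.14% and 0.0580%), 1 and 0 among unigenes of at least 500 bp (which leaves out contig_22280 by its length), and 0 and 0 among the 31 tested of the members named by NR description. RLE scaling, robust dispersion, a mean RPKM of at least 1 and no fold threshold gave 1 and 1. With each library left out they ranged from 0 to 5 and from 0 to 4, beside the shares over all unigenes given above. Library totals without TMM gave 1 and 1, but neither was a call of the TMM fit. Members lower in male flowers at an unadjusted p under 0.05 numbered 22 with library totals (9.44%, against 4.58% of all unigenes), 6 with limma (2.58%, against 1.52%) and 11 to 107 with a library left out.

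Library totals moved the median of all unigenes by -0.32 and that of the members to -1.38, which is -0.97 relative to all unigenes, against -0.80 with TMM. With a library left out the median of the members ran from -1.31 to -0.58, and relative to all unigenes from -1.10 to -0.43. Members without overlap on deposited RPKM, chosen after seeing the data, numbered 8 and 7, against 15 and 49. The mean share of reads was 0.128% in male flowers without the 5 most read unigenes, and for members named by NR description 0.0127% in male and 0.0219% in female flowers. Leaving out a library gave 0.0891% to 0.110% in male and 0.139% to 0.286% in female flowers. Signs turned for contig_8575 (-0.25), contig_9457 (-0.16) and contig_8516 (-0.075) with library totals. They also turned for contig_8516, at -0.13 without female replicate 1 and -0.12 without female replicate 2 (range -0.13 to 0.57 with a library left out), and for contig_14382, at 0.075 without male replicate 1 (range -0.60 to 0.075). The cause of these changes was not tested.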

Other observations

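Names of transposon kinship that the rule does not take were counted in the same fit. They made up 328 unigenes, 175 of them tested, with a median log2 difference, male minus female, of -0.17. At an unadjusted p under 0.05 there were 5 higher (2.86%, against 5.75% of all unigenes) and 15 lower in male flowers (8.57%, against 7.42%), and 1 of the 5 was called. Unigenes named Copia protein, after the Drosophila element, had a median of -1.18 with 11 of 12 tested below 0, close to the Gypsy-type median and below that of the Copia-type members. Reverse-transcriptase-like unigenes named ribonuclease H had a median of -0.13 (41 of 71 below 0), as LINE-type members had -0.24. Unigenes named after open reading frames of the Arabidopsis mitochondrial genome, some of which are retrotransposon remnants, had a median of -0.36 (28 of 40 below 0).

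Host genes that descend from transposases lay near 0. The FAR1 family, light-signalling transcription factors derived from a Mutator-like transposase, had a median of 0.11 with 17 of 43 tested below 0. The 9 unigenes named HARBI1, after a nuclease derived from a Harbinger transposase, had a median of -0.02. No list was tested against another.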
